A study of Mus musculus with 38 samples.

Results

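The 44 genes described here are the core genes of DNA replication and mitosis, followed through testes of prepubertal males of mouse X-chromosome substitution strains to look at proliferation apart from germ cell differentiation. A gene entered when its symbol stood in the platform annotation of the array as 1 of these members, whatever its values. Of the 44 genes, 43 had a probe set, and 94 of the 45101 probe sets on the array belonged to them. No probe set was named for Ccnb1, which encodes a mitotic cyclin, so its level was not analysed here. By role, 9 of the members with a probe set license replication origins, 5 work at the replication fork, 3 supply nucleotides, 7 are mitotic cyclins or kinases, 6 belong to the spindle checkpoint and anaphase machinery, 5 to chromosomes and kinetochores, and 8 to the spindle and cytokinesis.

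A dividing cell loads the MCM helicase onto replication origins in G1 phase, with Cdc6 and Cdt1 as loaders and geminin (Gmnn) as the inhibitor of reloading. In S phase the DNA polymerase alpha and primase complex (Pola1, Prim1) starts each strand, the clamp loader subunits Rfc3 and Rfc4 load the sliding clamp Pcna, and ribonucleotide reductase (Rrm1, Rrm2) and thymidylate synthase (Tyms) deliver nucleotides. Genes for the G2 and M phases, such as the cyclins, Cdk1, Plk1, the Aurora kinases and the mitotic kinesins, are transcribed later in the cycle, many of them from promoters with CCAAT boxes and a cell cycle genes homology region (CHR), while many replication genes carry E2F sites. In the testis of the first postnatal days, Sertoli cells and spermatogonia both divide, so these transcripts come from somatic and germ cells together. In RNA of a whole organ, fewer cells of a type and less RNA per cell cannot be told apart.

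The promoter stretches below are shown because they hold these elements in members whose signals differed with age or strain, in G2 and M phase genes (Kif11, Cdk1, Ube2c) and in replication genes (Mcm6, Pola1, Mcm3). They are the 150 bases upstream of the start in RefSeq on GRCm38.p6, written 5′ to 3′ on the strand of the gene, and capitals mark matches on either strand, overlapping matches included. The CHR was searched by the letters TTTGAA and the CCAAT box by those of its name. The E2F site was searched in the form TTTCCCGC and in the forms TTTGGCGC, and TTTCGCGC, and TTTGCCGC.
Kif11, chr19:37376232-37376381, plus strand: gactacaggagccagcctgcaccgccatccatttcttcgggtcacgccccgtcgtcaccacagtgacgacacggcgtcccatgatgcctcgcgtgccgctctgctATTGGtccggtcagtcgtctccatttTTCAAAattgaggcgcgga
Cdk1, chr10:69352913-69353062, minus strand: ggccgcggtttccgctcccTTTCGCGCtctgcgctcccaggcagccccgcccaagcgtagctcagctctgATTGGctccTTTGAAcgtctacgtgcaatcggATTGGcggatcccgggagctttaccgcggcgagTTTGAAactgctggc
Ube2c, chr2:164769779-164769928, plus strand: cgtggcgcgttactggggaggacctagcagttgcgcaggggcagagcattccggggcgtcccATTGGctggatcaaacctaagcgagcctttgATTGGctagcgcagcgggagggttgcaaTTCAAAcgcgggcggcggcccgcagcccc
Mcm6, chr1:128359706-128359855, minus strand: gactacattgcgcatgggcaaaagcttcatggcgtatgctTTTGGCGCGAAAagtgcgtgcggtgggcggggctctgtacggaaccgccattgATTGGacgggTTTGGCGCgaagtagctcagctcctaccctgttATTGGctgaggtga
Pola1, chrX:93632156-93632305, minus strand: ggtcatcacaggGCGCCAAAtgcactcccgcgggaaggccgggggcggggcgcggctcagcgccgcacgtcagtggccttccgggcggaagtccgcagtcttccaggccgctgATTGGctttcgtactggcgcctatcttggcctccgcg
Mcm3, chr1:20820313-20820462, minus strand: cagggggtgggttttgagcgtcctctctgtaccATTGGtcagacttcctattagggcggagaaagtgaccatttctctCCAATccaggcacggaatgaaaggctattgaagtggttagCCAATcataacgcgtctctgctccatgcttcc
Windows of 250 bases upstream of the start were held for 37 of the 44 genes, against 27025 genes in all. A CHR match stood in 9 of 22 mitosis members with a window (40.9%), in 1 of 15 replication members (6.67%) and in 18.3% of all genes. The E2F letters stood in 6 of 15 replication members (40.0%), in 1 of 22 mitosis members (4.55%) and in 2.16% of all genes. The CCAAT box stood in 18 of 22 mitosis members (81.8%), in 11 of 15 replication members (73.3%) and in 37.5% of all genes. These letters describe the windows and are no measure of a factor at work there.

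Testis RNA of 1 male was hybridized to each of 38 Affymetrix mouse genome arrays, in 11 groups of strain and age. The inbred strains were C57BL/6J (B6) and MSM, a strain of Mus musculus molossinus. In B6-ChrXMSM the whole X chromosome came from MSM on the B6 background, in B6-ChrXTMSM a distal part of it, and XS39-tel is a second partial substitution strain. The sixth group, (B6-ChrXTMSM x B6-Chr1MSM)F1, called F1 here, combined the X chromosome of B6-ChrXTMSM with 1 MSM-derived chromosome 1 on the same background. Each strain had 3 males at 5 days postpartum (dpp) and 3 at 7 dpp, except XS39-tel, which had 3 at 5 dpp alone, and F1, which had 8 at 7 dpp. The labels name no treatment, and 9 of the 11 groups shared the B6 background. The values are log2 signals from the robust multi-array average (RMA) of the authors, and array medians lay between 2.63 and 2.71. A gene was called higher or lower where the moderated test of limma gave a Benjamini-Hochberg adjusted p under 0.05, over all genes tested, and a fold change of at least 1.5, which is 0.59 on the log2 scale. All 43 members passed the filter of a signal above 10 in every comparison.

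Of the Sertoli cell list 17 of 20 genes passed the filter in B6 between ages and of the meiotic prophase list 14 of 24. Passing the filter does not show that cells in meiotic prophase were present. Mean-centred signals of 11 meiotic prophase genes ranged over 3.26 on the log2 scale between arrays, those of the Sertoli cell list over 0.55, and those of the 2 adipose genes kept in every comparison over 4.22. The F1 group at 7 dpp differed between replicates 1 to 4 and replicates 5 to 8: 21.7% of 9996 genes did not overlap between them. The first principal component of the 8 arrays held 41.7% of the variance, and whether it follows this split is not given here. Correlations did not separate the sets, as the lowest within a set was 0.9839 and the highest between them 0.9892. Meiotic prophase means overlapped between the sets. They were 0.99, 0.72, 0.16 and -0.04 in replicates 1 to 4, and 1.27, 0.57, 0.62 and 0.70 in replicates 5 to 8. GEO's labels give no reason for this split, so values of F1 at 7 dpp are also given for each set of 4 arrays, as alternatives chosen after seeing the data. No list of polymorphic probe sets was held for chromosomes other than 1 and X, so the effect of mismatched probes on autosomal members in comparisons of MSM with B6 was not tested.

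Averaged over the 43 members, the arrays differed little. The mean of the members, each centred on its own mean over all arrays, lay between -0.18 and 0.16, a range of 0.34. It was 0.11 ± 0.01 (SD, n = 3) in B6 and -0.00 ± 0.04 in B6-ChrXMSM at 5 dpp, and -0.06 ± 0.05 in B6 and -0.04 ± 0.04 in B6-ChrXMSM at 7 dpp. Over the same arrays the meiotic prophase mean went from -1.50 in B6-ChrXMSM at 5 dpp to 1.22 in MSM at 7 dpp. The lowest arrays were F1 replicate 2 at 7 dpp, at -0.18, and F1 replicate 1 at 5 dpp, at -0.17, in a group with a mean of 0.01 ± 0.16 (SD, n = 3). The 9 groups on the B6 background had a median range of group means of 0.36 per member, and 40 of 43 members stayed within 0.59 there. Over all 11 groups, 28 of 43 did. The median SD within a group was 0.08, so a member could differ between groups by several times that spread and remain under the fold change asked for a call.

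**Figure D1:**
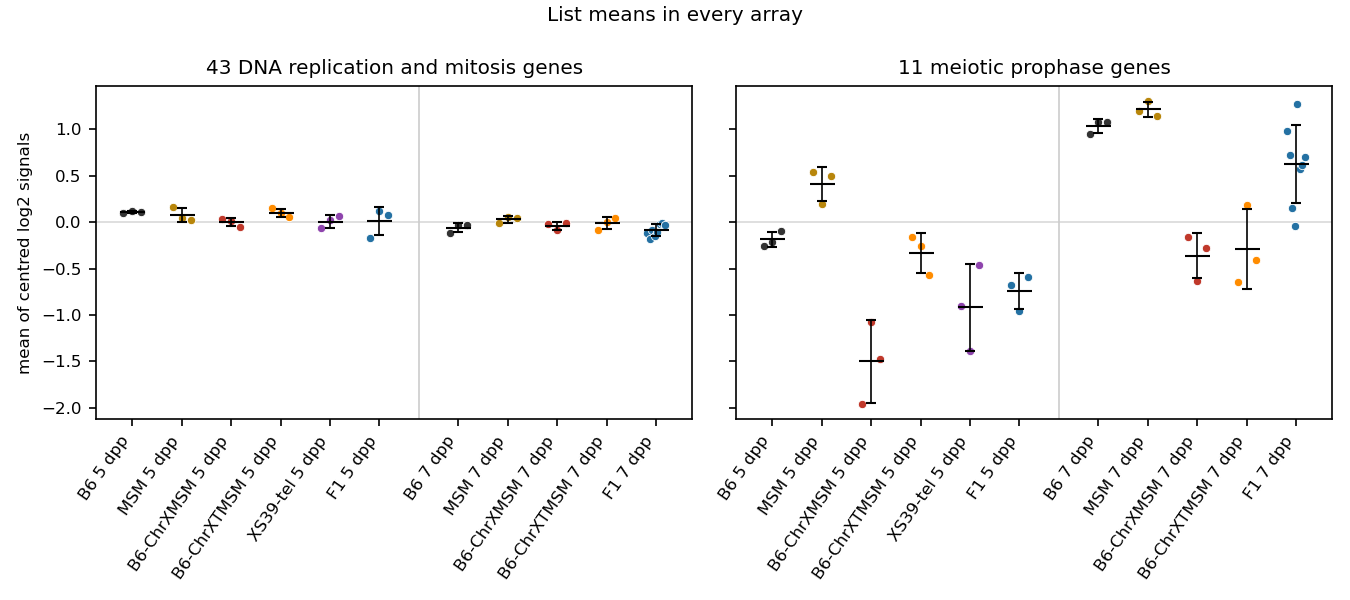
Mean centred log2 signal of each gene list in every array (points, 1 male each) by strain and age, with the mean and SD of each group as bars. The replication and mitosis genes stay between -0.18 and 0.16, while the meiotic prophase genes span 3.26.

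In B6 testes, 16 of 26 mitosis members had lower signals at 7 than at 5 dpp by adjusted p alone, and 2 passed the fold change as well, and 1 of 9 origin licensing genes was lower by adjusted p alone. Over all genes 22.3% were lower by adjusted p alone, 47.7% differed in either direction, and 8.52% were called. Of the 43 members, 19 were lower and 3 higher by adjusted p alone, and the median log2 fold change was -0.12 against 0.01 over all genes tested. Ccna2, which encodes cyclin A2, the cyclin that carries cells through S phase into G2, was the member with the largest change. Its log2 signals were 8.11, 8.16 and 8.10 at 5 dpp and 7.38, 7.38 and 7.45 at 7 dpp by the probe set that stood for it. The ages did not overlap, and the signal fell by 0.72 (standard error 0.05, adjusted p = 5.75e-05 by limma). Kif11, the kinesin that pushes spindle poles apart, had signals of 6.07, 6.11 and 6.10 at 5 dpp and 5.29, 5.49 and 5.38 at 7 dpp. It fell by 0.70 (standard error 0.06, adjusted p = 0.00013 by limma), again without overlap.

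Both called genes were measured by other probe sets too, and for Ccna2 they disagreed. Numbered by mean signal, the second Ccna2 probe set read between 7.48 and 7.52 at 5 dpp and between 7.60 and 7.73 at 7 dpp, a log2 fold change of 0.17 with adjusted p = 0.0284. The direction of the age change of Ccna2 therefore depended on the probe set, and why was not tested. For Kif11 the second probe set gave -0.36 and the third gave -1.35, the same direction. Among 26 members with several probe sets tested in B6, 20 had all of them on the same side of 0, and Ccna2 and Bub1 had probe sets past adjusted p on opposite sides.

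The other cyclins and kinases moved with Ccna2 at smaller sizes. All 7 members of this role were lower at 7 dpp in B6 by adjusted p alone, with a median of -0.24. Cdk1, the kinase that drives entry into mitosis and has 1 probe set, read 8.17, 8.13 and 8.19 at 5 dpp and 7.63, 7.69 and 7.74 at 7 dpp. The ages did not overlap, and the difference, -0.48 with a standard error of 0.05 and an adjusted p of 0.000333 by limma, stayed under the fold change of a call. Ccnb2, a B-type mitotic cyclin with 1 probe set, differed by -0.38.

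In the chromosome and kinetochore group 3 of 5 members were lower by adjusted p alone, and the kinetochore genes Cenpa and Cenpe, both at -0.07, were not. Mki67, the gene of the proliferation marker Ki-67, which coats mitotic chromosomes, read 8.70, 8.75 and 8.68 at 5 dpp and 8.26, 8.43 and 8.28 at 7 dpp. It did not overlap and differed by -0.39 (adjusted p = 0.00174). Top2a, the topoisomerase that untangles replicated chromosomes, differed by -0.29, and Birc5, the survivin of the chromosomal passenger complex, by -0.40. In the spindle group 5 of 8 members were lower by adjusted p alone, and Kif20a was highest at 0.025. Those lower included Nusap1 at -0.41, a protein that bundles spindle microtubules, and Prc1 at -0.37, a bundler of the central spindle.

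Replication members were not called with age in B6. Of 9 licensing genes 1 was lower by adjusted p alone, Mcm6 at -0.24, and the median was -0.04. Pcna read 9.94, 9.92 and 9.84 at 5 dpp and 9.70, 9.74 and 9.86 at 7 dpp, with overlapping ages. Rrm2, the small subunit of ribonucleotide reductase made in S phase, read 7.65, 7.70 and 7.61 at 5 dpp and 7.03, 7.14 and 7.06 at 7 dpp. The difference was -0.58, with a standard error of 0.05 and an adjusted p of 0.000192 by limma, just short of a call. Higher at 7 dpp by adjusted p alone were Ttk at 0.27, a kinase of the spindle checkpoint, Rfc4 at 0.20 and Bub1 at 0.15, a checkpoint kinase at kinetochores.

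Signals of other tissue moved with age in B6 as well. Of 4 adipose genes tested 3 were lower at 7 dpp, with a median of -2.64, and their mean-centred signals were 2.45, 1.81 and -0.44 in B6 replicates 1 to 3 at 5 dpp and between -1.77 and -1.47 at 7 dpp. B6 replicate 3, with the least adipose signal of the 3 at 5 dpp, read 8.10 for Ccna2, where the other males read 8.11 and 8.16, and 6.10 for Kif11, where they read 6.07 and 6.11. Meiotic prophase genes went the other way: 12 of 14 were called higher at 7 dpp, with a median of 1.31. The Sertoli list had 3 of 17 called higher and 3 lower. Their part in the members' changes was not tested.

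**Figure D2:**
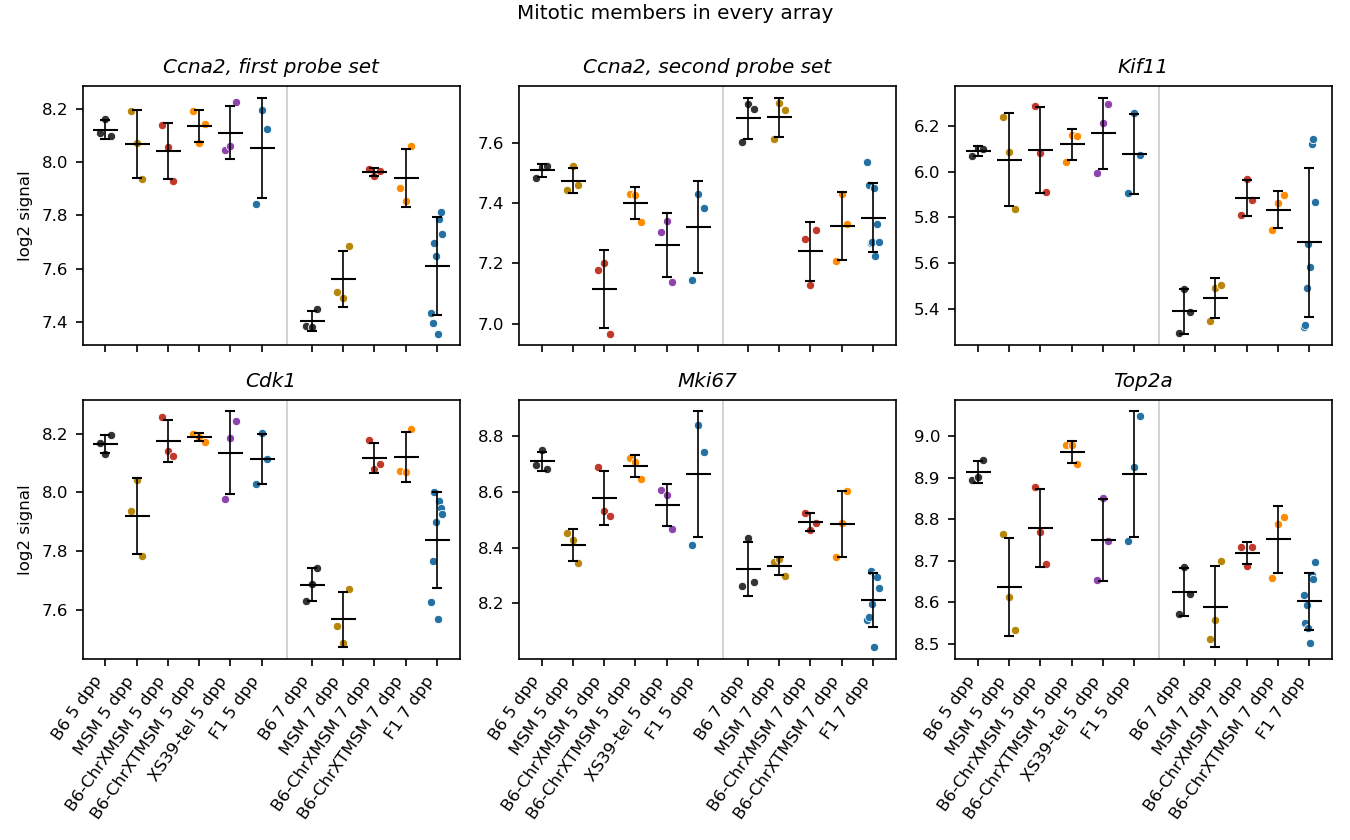
Log2 signal of Ccna2 by both probe sets, Kif11, Cdk1, Mki67 and Top2a in every array (points, 1 male each), 5 dpp left and 7 dpp right of the grey line, with mean and SD as bars. Ccna2 reads 7.38 to 7.45 in B6 at 7 dpp by the first probe set, below every male of 5 dpp, while the second reads higher in B6 at 7 than at 5 dpp.

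MSM testes also had lower cyclin and kinase signals at 7 dpp, while other members went up. Adjusted p alone gave 11 members lower and 8 higher (49.5% of all genes), and 2 were called, Mcm3 and Kif11, where 12.7% of all genes were. The median was -0.05 against 0.04 over all genes. Of 7 cyclins and kinases 6 were lower by adjusted p alone, with a median of -0.35, where 22.0% of all genes were lower. Kif11 read 6.24, 6.09 and 5.84 at 5 dpp and 5.35, 5.49 and 5.50 at 7 dpp, without overlap, and fell by 0.61 (adjusted p = 0.00188 by limma). The call was lost with array weights (-0.56), without MSM replicate 1 of 5 dpp (-0.51) and without MSM replicate 1 of 7 dpp (-0.56). Its second probe set gave -0.42 and the third 0.43, so the 3 probe sets did not share a direction in MSM. Mcm3, a subunit of the MCM helicase encoded on chromosome 1, read 7.73, 7.57 and 7.70 at 5 dpp and 6.84, 7.08 and 7.00 at 7 dpp, and fell by 0.69 (adjusted p = 0.000338). Its second and next probe sets gave -0.44 and -0.54, and the other pair gave 0.06 and 0.31. Cenpe, the kinesin that moves chromosomes to the metaphase plate, was the highest member at 0.49 (adjusted p = 0.00153), short of a call.

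In the 2 strains with an MSM-derived X chromosome no member was called between the ages by the probe set that stood for it. In B6-ChrXMSM, where 2.74% of all genes were called, the 95% intervals of all 43 changes lay within 1.5-fold. The highest member was Ttk at 0.21 and the lowest Rrm2 at -0.38 (adjusted p = 0.0107), while Ccna2 read 8.14, 8.06 and 7.93 at 5 dpp and 7.97, 7.95 and 7.97 at 7 dpp, with overlapping ages. In B6-ChrXTMSM, where 0.765% of all genes were called, 42 of 43 intervals lay within 1.5-fold. Anln, a cytokinesis scaffold, was highest at 0.03 and Tyms lowest at -0.41. The medians were -0.05 in B6-ChrXMSM, against 0.03 over all genes, and -0.08 in B6-ChrXTMSM, also against 0.03. By the third Kif11 probe set the ages did not overlap in either strain. It read 6.0 to 6.4 at 5 dpp and 4.6 to 4.7 at 7 dpp in B6-ChrXMSM. In B6-ChrXTMSM it read 5.3 to 6.0 and 4.4 to 4.8. The first and second overlapped between ages in B6-ChrXMSM. In B6-ChrXTMSM both were lower at 7 dpp without overlap.

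F1 testes had no member called between 5 and 7 dpp (5.65% of all genes were), and 8 members were lower and none higher by adjusted p alone (20.8% of all genes differed). The median was -0.07 against -0.00. The lowest was Rrm2 at -0.53 (adjusted p = 0.0128), followed by Mki67 and Ccna2, both at -0.45, and the highest was Rfc4 at 0.41. With replicates 1 to 4 of 7 dpp alone Kif11 passed as a call at -0.62, and with replicates 5 to 8 alone Rfc4 at 0.62. These sets were formed after the values were seen, so the calls are no test. Without F1 replicate 1 at 5 dpp, 1 member was called.

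**Figure D3:**
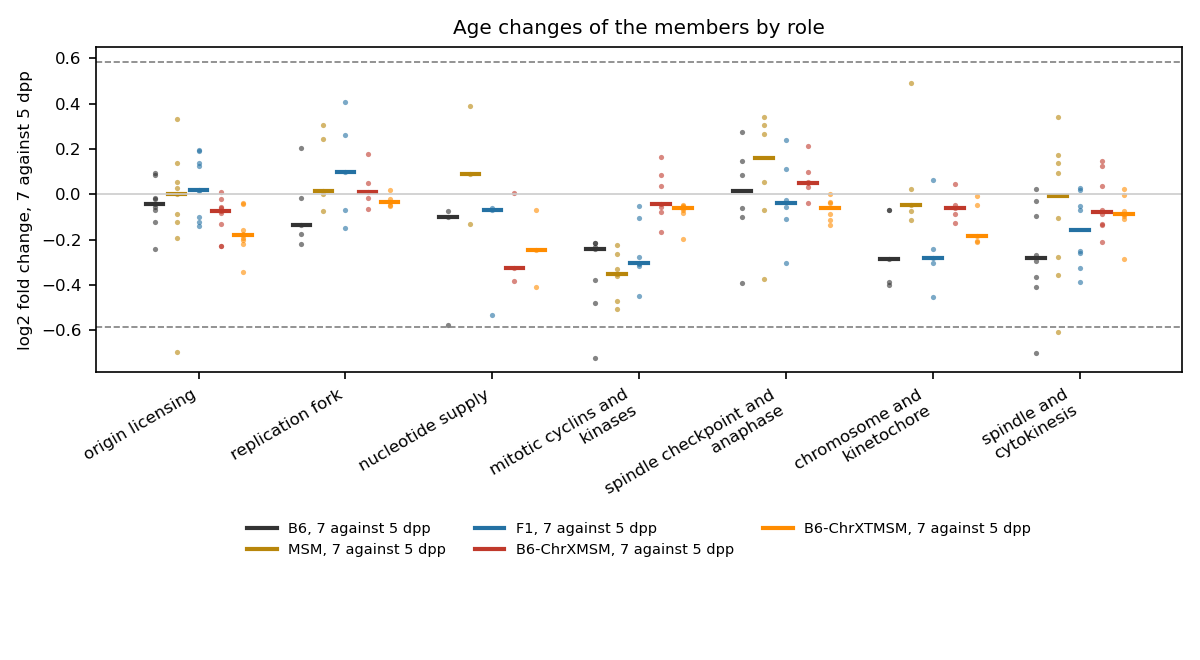
Log2 fold change from 5 to 7 dpp of each member (points) grouped by role, in the 5 strains with both ages, with the median of each role as a bar. The 7 cyclins and kinases lie at a median of -0.24 in B6 and -0.35 in MSM, and at -0.04 in B6-ChrXMSM and -0.06 in B6-ChrXTMSM.

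At 5 dpp the strains with MSM-derived X chromosome were within 1.5-fold of B6 for nearly every member, by the probe set that stood for it. In B6-ChrXMSM testes no member was called (1.69% of all genes were). Unadjusted p was under 0.05 for 14 of 43, against 2259 of 10050 genes in all. Kif20a, a kinesin of cytokinesis, at -0.35, Cenpe at -0.33 and Rfc4 at -0.23 were lower by adjusted p alone, where 4.07% of all genes were lower and 1.06% higher. The median was -0.12 against -0.01 over all genes, 37 of 43 members were below 0, and all 43 intervals lay within 1.5-fold. In the same testes 9 of 12 meiotic prophase genes were called lower, with a median of -1.47. The highest member was Pola1 at 0.13.

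B6-ChrXTMSM at 5 dpp had no member called either (0.239% of all genes were), 4 with an unadjusted p under 0.05, and members from Gmnn at -0.16 to Tyms at 0.35, with a median of -0.02 against -0.01. XS39-tel had none (0.356% of all genes), 12 with an unadjusted p under 0.05, and ran from Kif20a at -0.43 (adjusted p = 0.112) to Tyms at 0.22, with a median of -0.12 against 0.01. F1 had none (0.509% of all genes), 5 with an unadjusted p under 0.05, and ran from Gmnn at -0.26 to Pola1 at 0.10, with a median of -0.09 against 0.03. Over all genes, unadjusted p was under 0.05 for 1853 of 10048 in B6-ChrXTMSM, 1693 of 10111 in XS39-tel and 1540 of 10010 in F1. Of the 43 intervals, 42 lay within 1.5-fold in B6-ChrXTMSM and in XS39-tel, and 43 in F1. The third Kif11 probe set read 3.6 to 4.3 in XS39-tel, and 4.1 to 4.4 in MSM of this age, against 6.0 to 6.4 in B6. The first and second overlapped between XS39-tel and B6. These comparisons share the 3 B6 males of 5 dpp.

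At 7 dpp, testes of B6-ChrXMSM and B6-ChrXTMSM had higher signals than B6 for 3 and 4 of 7 cyclins and kinases, and lower signals for 5 of 9 licensing genes, by adjusted p alone and each below the fold change of a call. Over all genes 20.1% and 22.5% were higher and 21.1% and 19.4% lower by adjusted p alone. None was called in either strain, where 6.0% and 5.06% of all genes were. By adjusted p alone, 9 members were higher and 10 lower in B6-ChrXMSM (41.2% of all genes differed), and 13 were higher and 10 lower in B6-ChrXTMSM (41.9% of all genes). Unadjusted p was under 0.05 for 24 and 27 of 43 members, against 5065 of 10043 and 5140 of 10060 genes in all. The medians were 0.01 and 0.03, as over all genes, and 40 of 43 intervals lay within 1.5-fold in each. The same 3 B6 males stood in both comparisons. Meiotic prophase genes were called lower for 13 of 14 in each strain, with medians of -1.57 and -1.52, and the part of germ cell content in the members' values was not tested.

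Ccna2 was the highest member in both. By its first probe set it read 7.97, 7.95 and 7.97 in B6-ChrXMSM and 7.90, 7.85 and 8.06 in B6-ChrXTMSM, above the 7.38 to 7.45 of B6 without overlap. The differences were 0.56 (standard error 0.05, adjusted p = 0.000159 by limma) and 0.54 (standard error 0.07, adjusted p = 0.000891). With array medians subtracted the first was 0.60 and called. The second Ccna2 probe set read 7.13 to 7.31 and 7.21 to 7.43 in these strains and 7.60 to 7.73 in B6, the opposite direction, at -0.44 (adjusted p = 0.00181) and -0.36 (adjusted p = 0.00568).

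Members measured by 1 probe set went both ways. Cdk1 read 8.18, 8.08 and 8.10 in B6-ChrXMSM and 8.07, 8.07 and 8.22 in B6-ChrXTMSM against 7.63 to 7.74 in B6, a difference of 0.43 in both (adjusted p = 0.000901 and 0.00158). No male of either strain overlapped B6. Ccnb2 was higher by 0.35 and 0.30, Ube2c, which feeds the anaphase-promoting complex with ubiquitin, by 0.34 and 0.29, and Birc5 by 0.20 and 0.30, all past adjusted p. Gmnn, the inhibitor of origin reloading, differed by -0.25 and -0.28, also past adjusted p, and Plk1 at -0.04 and 0.04 did not pass. Among members with several probe sets, Kif11 read 5.81, 5.97 and 5.88, and 5.74, 5.86 and 5.90, against 5.29 to 5.49 in B6, or 0.50 and 0.45 by its first probe set. Its second probe set gave 0.14 and 0.17, and the third gave -0.21 and -0.20. Mki67 at 0.17 and 0.16 and Top2a at 0.09 and 0.13 did not pass adjusted p.

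Of the 9 licensing genes, the 5 lower by adjusted p alone in each strain stood beside none higher, with medians of -0.21 in B6-ChrXMSM and -0.18 in B6-ChrXTMSM. Mcm6 lay above B6 in both, at 0.05 and 0.13, without passing adjusted p. Mcm2 read 7.45, 7.29 and 7.36 in B6-ChrXMSM and 7.25, 7.42 and 7.31 in B6-ChrXTMSM against 7.66, 7.69 and 7.62 in B6, without overlap. The differences were -0.30 and -0.33 (adjusted p = 0.00635 and 0.00411), and its second probe set gave -0.28 and -0.38. The helicase loader Cdc6 differed by -0.35 and -0.24. Rfc4, the lowest member of B6-ChrXMSM, differed by -0.38 (adjusted p = 0.00256), and by -0.30 in B6-ChrXTMSM, and its second probe set by -0.35 and -0.36. Pcna did not separate: 9.77 to 9.87 in B6-ChrXMSM and 9.72 to 9.87 in B6-ChrXTMSM overlapped the 9.70 to 9.86 of B6.

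**Figure D4:**
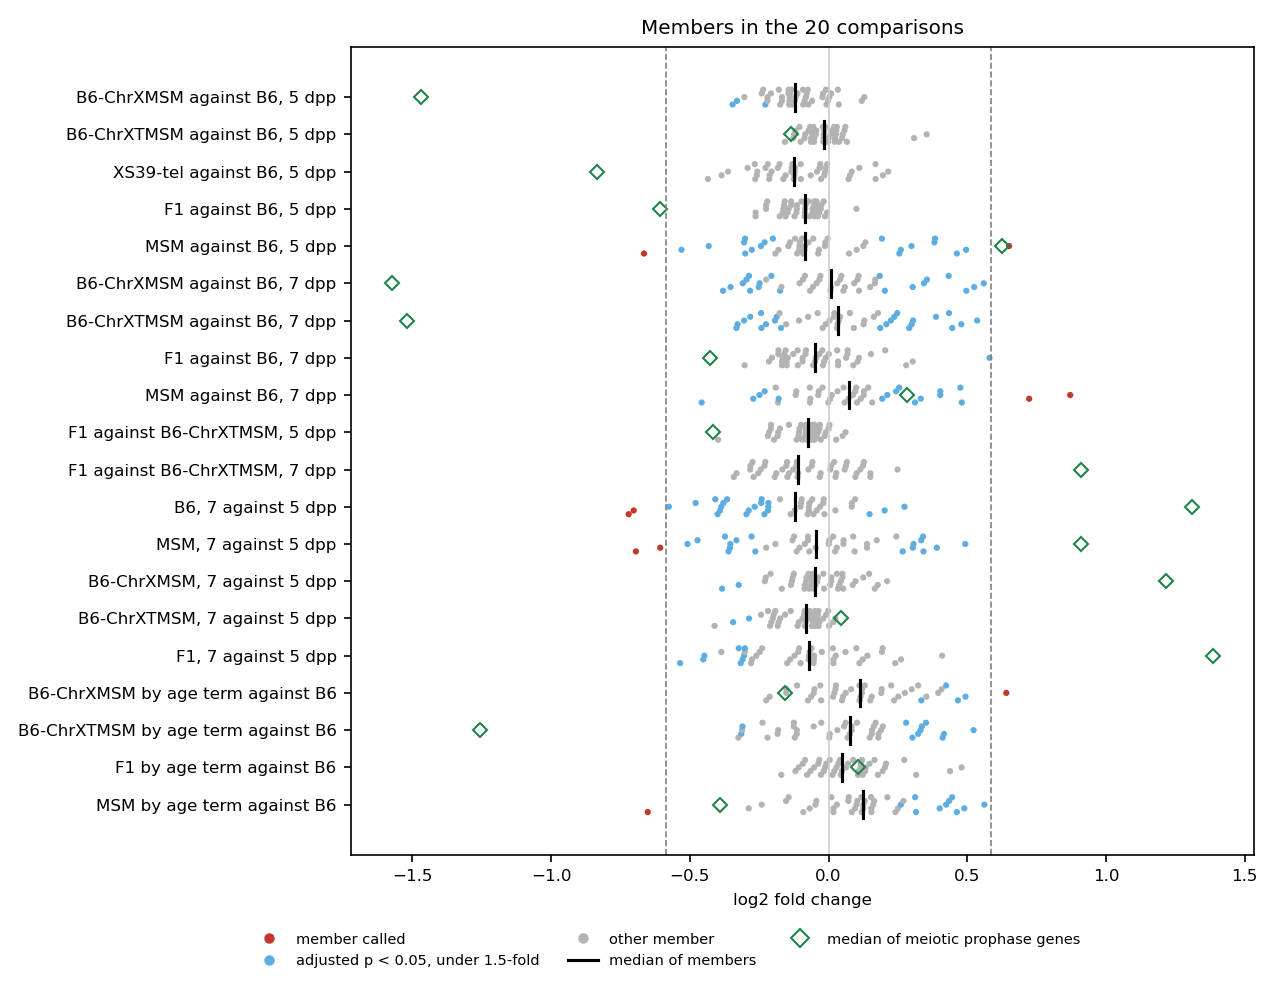
Log2 fold change of every member (points) in each comparison, red where called and blue past adjusted p alone, with the median of the members (bar), that of the meiotic prophase genes (diamond) and dashed lines at 1.5-fold. In each age, no member of B6-ChrXMSM, B6-ChrXTMSM, XS39-tel or F1 passes the lines against B6, and the highest are Pola1 at 0.58 in F1 and Ccna2 at 0.56 in B6-ChrXMSM, both at 7 dpp.

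Pola1, the catalytic subunit of DNA polymerase alpha and the X-linked member, was higher than in B6 in every group with an MSM-derived X chromosome at 7 dpp. It read 6.13, 6.05 and 6.09 in B6-ChrXMSM, 5.90, 6.12 and 6.11 in B6-ChrXTMSM and 6.31, 6.28 and 6.28 in MSM. F1 lay between 5.99 and 6.41 with a median of 6.05, and B6 read 5.49, 5.57 and 5.64. No male of these 4 groups overlapped B6, and the differences were 0.53 (adjusted p = 0.000437), 0.48 (adjusted p = 0.00224), 0.72 (adjusted p = 3.03e-05) and 0.58 (adjusted p = 0.0115). The difference from B6 at 5 dpp was 0.13 in B6-ChrXMSM (adjusted p = 0.461) and 0.31 in B6-ChrXTMSM (adjusted p = 0.0997). Its probe set was not among those listed as polymorphic, and its other probe set fell below the filter.

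F1 at 7 dpp differed from B6 in Pola1 alone by adjusted p, and no member was called (0.804% of all genes were). Pola1 was called without any 1 of F1 replicates 1 to 5, at 0.59 to 0.60, and did not pass adjusted p without any 1 of the 3 B6 males (adjusted p = 0.0571 to 0.0726). The lowest member was Kif20a at -0.30, and the median was -0.05 against 0.02. With replicates 5 to 8 alone, Mcm6 at 0.61 and Pola1 at 0.71 passed as calls, and with replicates 1 to 4 alone none did. These sets were formed after the values were seen. Mcm6 and Pola1 do not overlap between the sets, so these calls are no test. Mcm6, an MCM helicase subunit encoded on chromosome 1, read 7.18 to 7.51 in replicates 1 to 4 and 7.95 to 8.12 in replicates 5 to 8, against 7.44, 7.43 and 7.31 in B6. Mcm3, also on chromosome 1, read 6.72 to 6.83 and 7.05 to 7.21. Of the 43 members 12 did not overlap between the 2 sets of arrays, 8 higher and 4 lower in replicates 5 to 8, a share read against the 21.7% of all genes given above. They included Pcna, at 9.64 to 9.75 and 9.51 to 9.58.

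Against B6-ChrXTMSM, the strain that shares its X chromosome, F1 had no member called at 5 dpp (0.0301% of all genes were) or at 7 dpp (0.281%). At 5 dpp the members ran from Tyms at -0.40 to Plk1, a mitotic kinase, at 0.06. At 7 dpp they ran from Rrm2 at -0.34 to Rfc4 at 0.25. The 7 cyclins and kinases all lay below 0 there with a median of -0.24. Neither set of 4 arrays alone gave a call at 7 dpp.

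**Figure D5:**
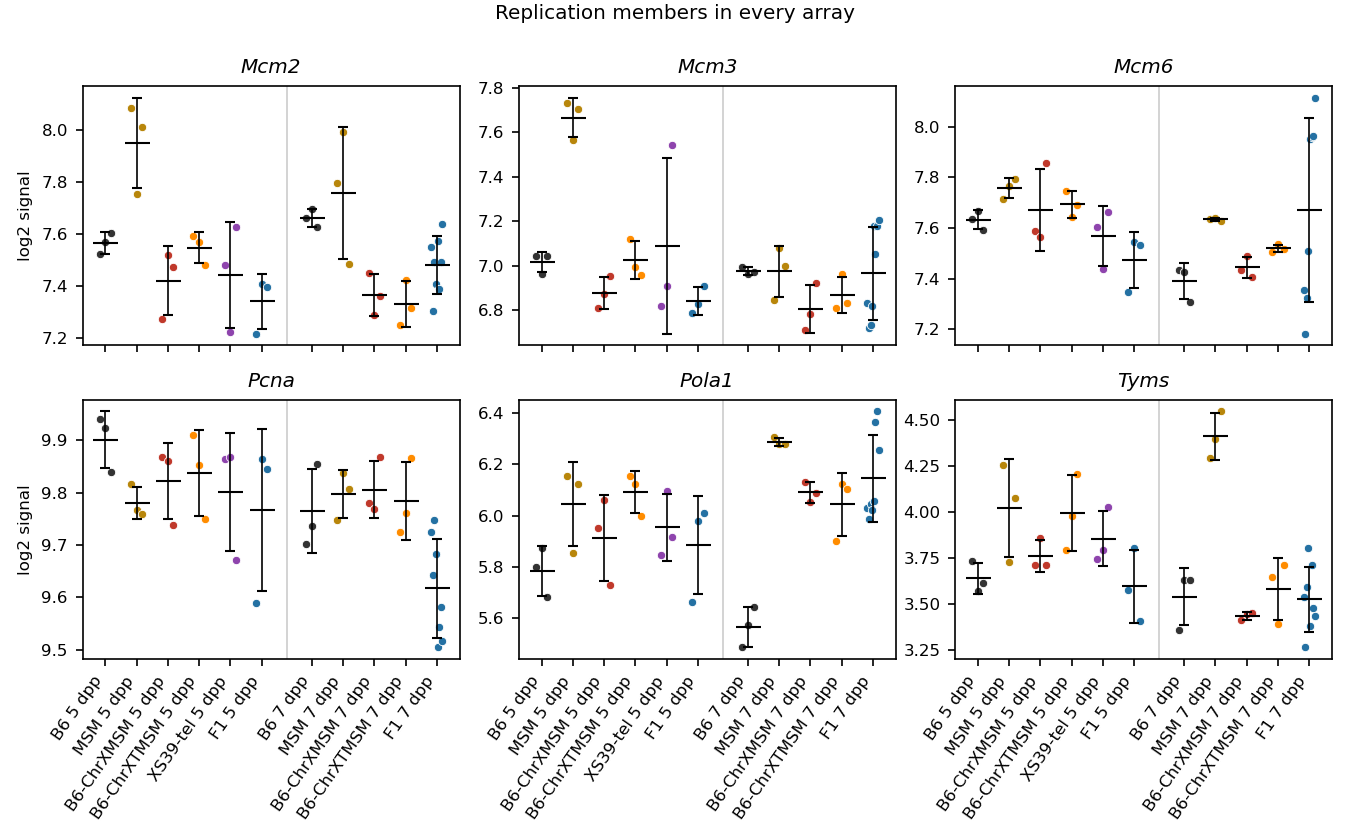
Log2 signal of Mcm2, Mcm3, Mcm6, Pcna, Pola1 and Tyms in every array (points, 1 male each), 5 dpp left and 7 dpp right of the grey line, with mean and SD as bars. Pola1 reads 5.49 to 5.64 in B6 at 7 dpp, below all other males of that age, and Mcm6 of F1 at 7 dpp falls into 7.18 to 7.51 and 7.95 to 8.12.

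Whether the change with age differed between strains was tested as a term of its own, the change in the strain minus that in B6. For B6-ChrXMSM the term was called for 1 member, Ccna2, at 0.64 (standard error 0.08, adjusted p = 0.00321), where 1.41% of all genes were called. By adjusted p alone 5 members passed, all above 0 (4.06% of all genes): Ccna2, Kif11 at 0.49, Ccnb2 at 0.47, Cdk1 at 0.42 and Kif23, a kinesin of the midbody, at 0.33. The Ccna2 call was lost without B6-ChrXMSM replicate 3 of 5 dpp, where the term was 0.58 (adjusted p = 0.00442), and in 1 fit over all groups (adjusted p = 0.0902), and the second Ccna2 probe set gave -0.05 (adjusted p = 0.817). For Kif11 the second probe set put the term above 0 and the third put it below 0. Among 26 members with several probe sets tested, 19 had all of them on the same side of 0 in this term. The median over members was 0.12 against 0.02 over all genes.

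For B6-ChrXTMSM no member was called (5.13% of all genes were), and 9 were above and 2 below 0 by adjusted p alone (24.2% of all genes). Ccna2 was highest at 0.52 (adjusted p = 0.00232), then Kif11 at 0.42 (adjusted p = 0.00722) and Cdk1 at 0.41 (adjusted p = 0.00355). Mcm2 and Ttk, both at -0.31, were those below, and Cdt1 at -0.33 was lowest with an adjusted p of 0.0502. Meiotic prophase genes had 11 of 14 called below 0 in this term, with a median of -1.26. For F1 none was called (0.00968% of all genes), and the members ran from Cenpe at -0.17 to Pola1 at 0.48. With F1 replicates 5 to 8 of 7 dpp alone, Mcm6 at 0.77 and Pola1 at 0.61 passed as calls. With replicates 1 to 4 none did. Both sets were formed after the values were seen, so these calls are no test.

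Of the strains set against B6, MSM was the one with members called, 2 at each age. At 5 dpp Mcm3 was called higher and Kif23 lower, where 25.4% of all genes were called, and 9 members were higher and 10 lower by adjusted p alone (65.2% of all genes). The median was -0.09 against 0.10. Mcm3 read 7.73, 7.57 and 7.70 in MSM and 7.04, 6.96 and 7.04 in B6, without overlap, a difference of 0.65 (adjusted p = 9.36e-05 by limma). Its second probe set by mean signal gave 0.33, the third gave 0.58 and the fourth gave -1.10. Kif23 read 6.94, 6.89 and 6.78 in MSM and 7.54, 7.57 and 7.50 in B6, and was lower by a log2 fold change of -0.67 (adjusted p = 6.79e-05), with -0.50 by its second probe set.

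At 7 dpp Tyms and Pola1 were called higher in MSM (14.8% of all genes were called), and 12 members were higher and 5 lower by adjusted p alone (56.6% of all genes). The median was 0.07 against 0.11. Tyms read 4.29, 4.39 and 4.54 in MSM and 3.36, 3.63 and 3.63 in B6, a difference of 0.87 (adjusted p = 0.00013) from a level near the filter. Cdt1, the loader that geminin inhibits, was lowest at -0.46 (adjusted p = 0.00133). In the term by age, Mcm3 was called at -0.65 (adjusted p = 0.000494, where 10.6% of all genes were called), and 10 members were above and 1 below 0 by adjusted p alone (34.8% of all genes), with Cenpe highest at 0.56. The median of the term was 0.12 against 0.03.

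In the rest of the pathway, 27 other replication genes were tested, and 1 was called higher and 3 lower in B6-ChrXMSM at 7 dpp, with a median of -0.13, where 6.0% of all genes were called. In B6-ChrXTMSM none was higher and 2 were lower, with a median of -0.14, where 5.06% of all genes were called. Orc1, the largest subunit of the origin recognition complex, differed most, by -0.93 and -0.81 on the log2 scale. Tk1, the thymidine kinase of S phase, was higher by 0.59 in B6-ChrXMSM (adjusted p = 0.000791). Between 7 and 5 dpp in B6, Orc1 was called higher at 0.62 and Tk1 lower at -0.74. Of 32 other mitosis genes none was called in either strain at 7 dpp or with age in B6, where 6.0%, 5.06% and 8.52% of all genes were. Their means over arrays ranged over 0.30, and those of the other replication genes over 0.32, much as the 0.34 of the members.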

How the data were processed

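Whole-testis RNA of 38 males was profiled, 1 array per male, and the labels gave the strain and age of each. The deposited log2 values are RMA values that the authors made in GeneSpring GX, whose version is not given in the sources used here. RMA corrects perfect-match probes for background, quantile-normalizes the arrays and summarises them to probe sets. Quantile normalization removes a shift common to all genes. Nothing was transformed again, and 0 per-sample columns were left out.

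Probe sets were named through the platform annotation. Left out were 932 probe sets naming more than 1 gene and 9211 without a gene. Comparisons between strains also left out the listed polymorphic probe sets of the X chromosome and, for F1 and MSM, of chromosome 1. Comparisons between ages and terms by age kept them. Per gene, the probe set of highest mean over all arrays stood for 18019 genes, a listed polymorphic one only where no other existed. Groups were compared in pairs, or in 4 groups for terms by age, by the two-sided moderated test of limma 3.58.1 (R 4.3.3), with lmFit then eBayes. A probe set entered where 1 group mean or more exceeded a signal of 10. Adjustment was by Benjamini-Hochberg, a call needed adjusted p under 0.05 and 1.5-fold, and intervals are 95%. The number of arrays limits the precision, and GEO's labels name the arrays of a group as biological replicates.

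Members and gene lists were chosen with earlier results of these data known. Named in each comparison are the called members or, where none was, the highest and lowest. Values per array are given for the members called most often, for Pola1 and Mcm6, and for Mki67, Pcna, Top2a and Cdk1. Others are named as examples of a role, chosen after their values were seen. Counts of intervals within 1.5-fold stand without the share over all genes. Whether they exceed that share was not tested. Alternatives were no fold change threshold, any probe set of a gene, array medians subtracted, array weights, 1 fit over all groups, other filters, a replicate block and leaving out each array.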

Additional observations from a re-analysis of the deposited data

Results flagged for a closer look

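Of 44 values examined for an array standing apart, 1 did. Groups of 4 to 10 arrays were examined, and F1 at 7 dpp, with 8, was the only group of that size. Ccnb2 in F1 replicate 5 at 7 dpp read 7.06, where the next lowest of the 8 males read 7.25 and the highest 7.39, a gap of 0.573 of the range of the group. This male also read lowest of the 8 for Ccna2 by its first probe set, Cdk1 and Plk1, but not for Cdc25c, Aurka or Aurkb. Its meiotic prophase mean of 1.27 was the highest of the 8. Whether these go together was not tested. Chance sets 1 array apart in about 1 of 20 such groups.

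In 2 members the change from 5 to 7 dpp differed between a strain and B6 by a test of the difference itself. The Ccna2 term of B6-ChrXMSM was 0.64 (adjusted p = 0.00321 by limma), and the second probe set gave -0.05 (adjusted p = 0.817). The call was lost in 1 fit over all groups (adjusted p = 0.0902) and without B6-ChrXMSM replicate 3 of 5 dpp (0.58). The Mcm3 term of MSM was -0.65 (adjusted p = 0.000494 by limma), from MSM signals above those of B6 at 5 dpp, and the fourth probe set gave 0.43 (adjusted p = 0.0187).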

How the results depend on the processing

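Member counts were compared over 20 results and 323 other settings, of which 271 left a count within 1.5-fold and 52 did not, and none of 31 named changes reversed while the probe set was kept. Where a count moved, the cause was not tested, except that dropping the fold threshold can only add calls. Without the fold threshold, members called between ages were 22 in B6, 19 in MSM, 2 in B6-ChrXMSM, 2 in B6-ChrXTMSM and 8 in F1. Against B6 they were 3 in B6-ChrXMSM and 19 in MSM at 5 dpp, and 19, 23, 1 and 17 in B6-ChrXMSM, B6-ChrXTMSM, F1 and MSM at 7 dpp, with 5, 11 and 11 in the terms by age of B6-ChrXMSM, B6-ChrXTMSM and MSM. With any probe set, 1 was called in XS39-tel and 12 in MSM at 5 dpp, 1, 1, 1 and 6 in B6-ChrXMSM, B6-ChrXTMSM, F1 and MSM at 7 dpp, 6, 1, 1 and 2 between ages in MSM, B6-ChrXMSM, B6-ChrXTMSM and F1, and 2, 1 and 5 in the terms of B6-ChrXMSM, B6-ChrXTMSM and MSM. By another probe set, 11 of 21 named changes reversed. Ccna2 gave 0.17 with age in B6, -0.44 and -0.36 in B6-ChrXMSM and B6-ChrXTMSM at 7 dpp, and -0.0495 and -0.25 in their terms by age. Kif11 gave 0.43 with age in MSM, and -0.21 and -0.20 in B6-ChrXMSM and B6-ChrXTMSM at 7 dpp, and Mcm3 in MSM gave -1.10 against B6 at 5 dpp, 0.0589 and 0.31 with age, and 0.43 and 0.28 in the term. Subtracting array medians called Ccna2 in B6-ChrXMSM (0.60) and Pola1 in F1 (0.60) at 7 dpp, 1 member each. Array weights gave 1 in F1 at 7 dpp, 1 between ages in MSM and in F1, and 2 in the MSM term. A single fit over all groups left 0 in the B6-ChrXMSM term (Ccna2 adjusted p = 0.0902). In settings chosen after seeing the data, F1 replicates 5 to 8 gave 2 against B6 at 7 dpp, 1 between ages and 2 in the term, and replicates 1 to 4 gave 1 between ages.

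Leaving out 1 array gave 0 to 1 members in F1 against B6 at 7 dpp (1, Pola1, without any of F1 replicates 1 to 5), 1 to 2 between ages in MSM (Kif11 lost without replicate 1 of 5 or of 7 dpp) and 0 to 1 in F1 (1 without replicate 1 of 5 dpp). The B6-ChrXMSM term had 0 to 2 (0 without B6-ChrXMSM replicate 3 of 5 dpp and 2 without replicate 1), and the MSM term 1 to 3 (2 without B6 replicate 1 or MSM replicate 2 of 5 dpp, 3 without MSM replicate 1). It gave 2 to 3 in MSM against B6 at 5 dpp and in B6 between ages, where Rrm2 was called without replicate 3 of 5 dpp or replicate 2 of 7 dpp. With the replicate number as a block, 1 member was called between ages in F1, against 0 without it, and no other count moved beyond 1.5-fold. In 0 of 16 comparisons did every same-numbered pair correlate above 0.1 (range -0.32 to 0.30), so the numbers were not taken to pair animals. Signals near the filter, such as those of Tyms, carry little above background.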
